A study of Mus musculus with 6 samples.

Results

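The genes of antigen presentation by major histocompatibility complex (MHC) class II were followed in hearts of aged female mice after TAC or sham surgery. They were chosen by name: H2-Aa, H2-Ab1, H2-Eb1, H2-DMa, H2-DMb1, H2-DMb2, H2-Oa, Cd74 and Ciita, 9 of the 22298 genes in the deposited table, and all 9 were found there. The TAC group was 3 hearts of wild-type females aged 18 months that underwent TAC. The letters usually stand for transverse aortic constriction, a surgical narrowing of the aorta that makes the left ventricle pump against raised pressure. The sham group was 3 hearts of wild-type females of the same age after sham surgery. The sources used here give neither the mouse strain nor the time after surgery, and do not state that each heart came from a different animal. The p-values therefore rest on the spread among these libraries, which may be technical. Each heart gave 1 oligo(dT)-selected RNA library with estimated counts and FPKM (counts scaled for gene length and library total) for each gene.

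MHC class II molecules carry peptides from endosomes to the surface of antigen-presenting cells, where CD4 T cells read them. Each is a pair of an alpha and a beta chain, assembled with the invariant chain encoded by Cd74, which blocks the groove until proteases cut it down to a short peptide called CLIP. H2-DM, a pair of DM chains, swaps CLIP for antigen peptides, and H2-O holds H2-DM back. CIITA, the coactivator encoded by Ciita, switches the genes on by docking on factors bound to the X and Y boxes of their promoters. In the heart, dendritic cells, B cells and a part of the macrophages carry class II, and interferon gamma can induce it in other cells.

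The libraries held between 22172718 and 25799573 estimated counts in TAC and between 19747265 and 27549838 in sham. On the first principal component of log2 CPM, which held 57.7% of the variance, TAC replicate 1 lay at -1.70. TAC replicates 2 and 3 lay at 42.9 and 45.5, and the sham libraries between -32.0 and -25.2. Cardiomyocyte markers were abundant in all libraries, with Actc1, cardiac actin, between 7222 and 7995 FPKM in TAC and between 6781 and 7636 FPKM in sham. CPM below are counts scaled to a common library size, with library sizes adjusted by the TMM method.

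Promoter sequences from RefSeq (GRCm38.p6, 250 bases before to 50 after the gene start) were matched for 6 of the 9 genes, H2-Aa, H2-Eb1, H2-Oa, H2-DMa, H2-DMb1 and H2-DMb2, in 7 windows. H2-Ab1, Cd74 and Ciita were not matched. Of the 7 windows, 5 are shown because the stretch printed holds the letters of the Y box, with or without the exact letters searched for the X box. CIITA acts through these boxes. Each stretch runs 5′ to 3′ on the gene's strand, from base -140 to base -21 counted from the start (the base just before it is -1). For H2-DMb1, H2-DMb2 and H2-Oa the RefSeq start lies inside the GENCODE gene whose ends are given below. Capitals mark GCAAC, the core letters searched for the X box, and ATTGG, which is CCAAT, the Y box core, read on the other strand. CCAAT itself, at -35 in H2-Eb1, is left in lower case.
H2-Aa, chr17:34287844-34287963, minus strand: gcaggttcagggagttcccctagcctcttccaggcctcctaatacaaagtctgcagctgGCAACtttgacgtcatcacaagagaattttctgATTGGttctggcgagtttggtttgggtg
H2-Eb1, chr17:34305727-34305846, plus strand: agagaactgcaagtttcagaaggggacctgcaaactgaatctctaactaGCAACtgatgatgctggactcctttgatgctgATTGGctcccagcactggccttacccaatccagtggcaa
H2-Oa, chr17:34092239-34092358, plus strand: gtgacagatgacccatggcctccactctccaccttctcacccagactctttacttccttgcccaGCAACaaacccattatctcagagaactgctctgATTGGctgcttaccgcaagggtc
H2-DMb1, chr17:34153051-34153170, plus strand: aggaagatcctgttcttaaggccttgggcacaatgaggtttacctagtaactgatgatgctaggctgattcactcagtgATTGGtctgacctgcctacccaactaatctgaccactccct
H2-DMb2, chr17:34145109-34145228, plus strand: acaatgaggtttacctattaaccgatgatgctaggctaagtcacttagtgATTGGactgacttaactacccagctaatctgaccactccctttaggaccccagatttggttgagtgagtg

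GCAAC was followed by ATTGG after a gap of 28 bases in H2-Aa, 27 in H2-Eb1 and 28 in H2-Oa. The first letters of both motifs lay at -81 and -48 in H2-Aa, at -91 and -59 in H2-Eb1, and at -76 and -43 in H2-Oa. This arrangement, with a gap of 25 to 31 bases on either strand, stood in 0.341% of all 32851 promoter windows of this length, those of 101 genes. CCAAT stood in 37.4% of them and GCAAC in 35.2%, each on either strand and with or without the other. Among the 101 genes, 5 were class II genes: H2-Aa, H2-Eb1, H2-Oa, and the class II chains H2-Ob and H2-Eb2. H2-DMb1 and H2-DMb2 held ATTGG at -61 and -90 without an exact GCAAC. Variants of these letters were not searched, so an X box with other letters is not excluded. H2-DMb1 shared a run of 13 letters with H2-Eb1, aactgatgatgct, which starts at -92 in H2-DMb1 and at -89 in H2-Eb1. In H2-Eb1 the run begins inside GCAAC, and in H2-DMb1 inside gtaac, which differs from GCAAC by a single letter. Neither window of H2-DMa held the arrangement or any of these letters in that stretch. The more downstream one had ATTGG at -198 and the other GTTGC, which is GCAAC on the other strand, at -7. A match describes letters and does not show that a factor binds.

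No member passed the test over all genes, yet all tested members had positive log2 fold changes. The filter on low counts left 8 of the 9 members, all but H2-Oa. Of these 8, 0 passed at 0.05 in the two-sided quasi-likelihood test of edgeR with Benjamini-Hochberg (BH) adjustment over 13708 genes, against 1.66% of all tested genes in either direction (1.12% higher and 0.54% lower). At an unadjusted p under 0.05 there were 5 of 8, all higher in TAC. Of all tested genes, 16.3% were higher at that level, and 25.6% differed in either direction. DESeq2's Wald test called 2, H2-DMb1 and Ciita (adjusted p = 0.0169 each), against 7.81% of all genes called higher by that test, and limma-voom and limma-trend on FPKM called 0. The log2 fold changes ran from 0.35 to 1.00 with a median of 0.44, and the median over all tested genes was 0.03. All 8 were above 0, as were 52.9% of all tested genes. The groups did not overlap in CPM in 3 of 8, Ciita, H2-DMb1 and H2-DMb2, all with TAC above sham, against 18.4% of all tested genes.

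**Figure D1:**
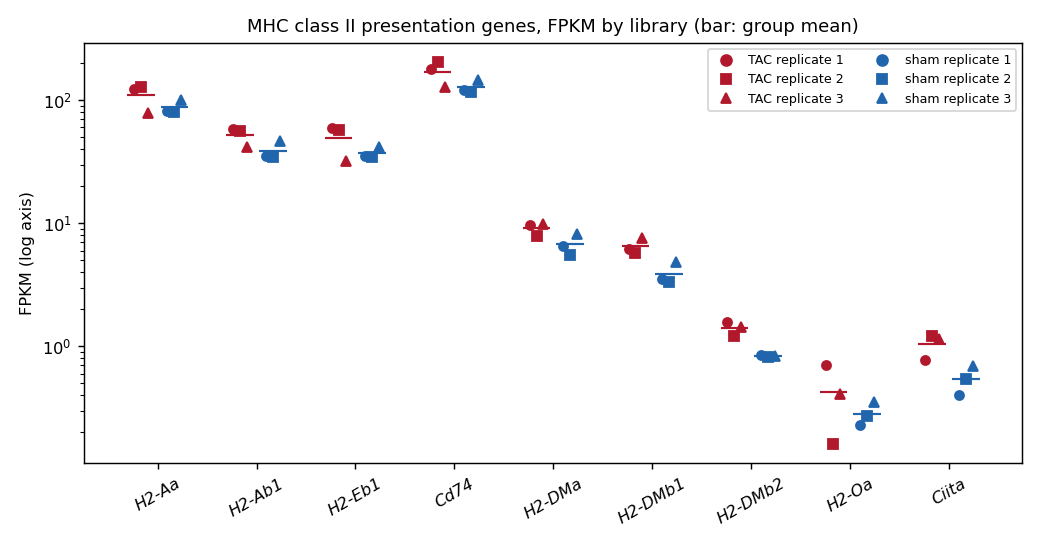
FPKM of the 9 genes in each library on a log axis, TAC libraries in red left of sham libraries in blue, with a bar at the group mean. Cd74 and the classical chains lie well above H2-DMa and H2-DMb1, and these above H2-DMb2, Ciita and H2-Oa.

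By length-scaled level the genes fell into tiers. Cd74, the invariant chain, averaged 171 ± 38.7 FPKM in TAC and 128 ± 15.9 FPKM in sham (SD, n = 3 each). H2-Aa, the alpha chain of the I-A molecule, followed with 110 ± 27.1 FPKM in TAC and 87.7 ± 11.7 FPKM in sham. H2-Ab1, its beta chain, averaged 52.3 ± 9.01 FPKM in TAC and 38.8 ± 6.46 FPKM in sham. H2-Eb1, the beta chain of the I-E molecule, lay within the spread of H2-Ab1, at 49.6 ± 15.1 FPKM in TAC and 37.2 ± 4.13 FPKM in sham. The DM alpha chain gene H2-DMa averaged 9.15 ± 1.13 FPKM in TAC and 6.75 ± 1.33 FPKM in sham, and H2-DMb1 averaged 6.53 ± 0.965 FPKM in TAC and 3.89 ± 0.794 FPKM in sham. H2-DMb2, Ciita and H2-Oa were the lowest, at 1.41 FPKM or less in either group. The 9 genes together took 0.0548%, 0.0578% and 0.0380% of all counts in TAC replicates 1, 2 and 3, and 0.0356%, 0.0346% and 0.0438% in sham replicates 1, 2 and 3.

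The classical chains and Cd74 shared a library pattern in which TAC replicates 1 and 2 stood above the sham libraries and TAC replicate 3 did not. H2-Aa (ENSMUSG00000036594, chromosome 17, 34282744 to 34287823, minus strand in GRCm38) had 146, 147 and 84.3 CPM in TAC replicates 1, 2 and 3 and 93.7, 91.4 and 111 CPM in sham replicates 1, 2 and 3. TAC replicate 3 was the lowest of the 6 libraries, and the groups overlapped. The log2 fold change of H2-Aa was 0.35 ± 0.21 (SE, adjusted p = 0.332 in edgeR). H2-Ab1 (ENSMUSG00000073421, chromosome 17, 34257689 to 34269419, plus strand) had 74.5, 69.5 and 47.8 CPM in TAC and 43.4, 42.7 and 54.6 CPM in sham (log2 fold change 0.45 ± 0.19 SE, adjusted p = 0.180 in edgeR). Its TAC replicate 3 lay inside the sham range.

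H2-Eb1 (ENSMUSG00000060586, chromosome 17, 34305867 to 34316674, plus strand) had 89.7, 81.9 and 44.8 CPM in TAC and 51.9, 51.4 and 59.3 CPM in sham. As for H2-Aa, TAC replicate 3 lay below all sham libraries (log2 fold change 0.41 ± 0.24 SE, adjusted p = 0.306 in edgeR). Cd74 (ENSMUSG00000024610, chromosome 18, 60803848 to 60812652, plus strand) had 237, 262 and 153 CPM in TAC and 155, 150 and 181 CPM in sham, with TAC replicate 3 inside the sham range. Its log2 fold change was 0.42 ± 0.20 (SE, adjusted p = 0.233 in edgeR). Without TAC replicate 3 the log2 fold changes were 0.56 for H2-Aa, 0.60 for H2-Ab1, 0.65 for H2-Eb1 and 0.61 for Cd74. None passed there either, with adjusted p = 0.0774 in edgeR for H2-Aa, 0.0849 for H2-Ab1, 0.0506 for H2-Eb1 and 0.0755 for Cd74. For H2-Aa, H2-Ab1, H2-Eb1 and Cd74 in turn, leaving out TAC replicate 2 gave 0.19, 0.35, 0.28 and 0.24, and leaving out TAC replicate 1 gave 0.22, 0.31, 0.22 and 0.35. In bulk tissue, fewer cells of a type and less RNA per cell cannot be told apart.

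The H2-DM genes, which encode the peptide editor, stood above the sham mean in all TAC libraries, TAC replicate 3 included. H2-DMb1 (ENSMUSG00000079547, chromosome 17, 34153072 to 34160230, plus strand), a DM beta chain, had 9.15, 8.20 and 10.1 CPM in TAC and 5.03, 4.74 and 6.56 CPM in sham. The groups did not overlap and TAC replicate 3 was the highest library. Its log2 fold change was 0.75 ± 0.19 (SE, adjusted p = 0.0710 in edgeR), a 1.68-fold difference. H2-DMb2 (ENSMUSG00000037548, chromosome 17, 34143307 to 34151555, plus strand), the second DM beta chain gene of the mouse, had 2.37, 1.74 and 1.91 CPM in TAC and 1.23, 1.18 and 1.15 CPM in sham. These groups did not overlap either (log2 fold change 0.75 ± 0.28 SE, adjusted p = 0.143 in edgeR). H2-DMa (ENSMUSG00000037649, chromosome 17, 34119541 to 34139101, plus strand) had 11.4, 8.94 and 10.6 CPM in TAC and 7.75, 6.29 and 9.004 CPM in sham. TAC replicate 2 lay just under sham replicate 3, so the groups overlapped (log2 fold change 0.43 ± 0.18 SE, adjusted p = 0.193 in edgeR).

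H2-DMb1 and H2-DMb2 are near copies. Their first annotated transcripts, of 1404 and 1424 bases, were identical at 90.8% of 1244 aligned bases, with a longest shared run of 221 bases. For comparison, the beta chain transcripts of H2-Ab1 and H2-Eb1 were identical at 68.0% of 1015 aligned bases, with a longest shared run of 37 bases. H2-DMb1 and H2-DMb2 were also the 2 members with fractional counts, so how reads were shared between them is uncertain. With their counts summed the log2 fold change was 0.75 (adjusted p = 0.0626 in edgeR). H2-DMa overlaps Brd2, and H2-Oa, H2-Eb1, Cd74 and Ciita also overlap other annotated genes. The kit is not stated to keep the strand, so reads of such pairs may not have been told apart.

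Ciita, the class II coactivator (ENSMUSG00000022504, chromosome 16, 10480059 to 10528418, plus strand), had the largest log2 fold change of the 8 tested members. It stood at 4.40, 6.90 and 6.21 CPM in TAC and at 2.21, 3.13 and 3.42 CPM in sham, with no overlap. TAC replicates 2 and 3 were the highest. The log2 fold change was 1.00 ± 0.26 (SE, adjusted p = 0.0753 in edgeR). Without TAC replicate 1, Ciita (1.15, adjusted p = 0.0196 in edgeR) and H2-DMb1 (0.73, adjusted p = 0.0437) passed, in a fit in which 13.2% of all genes were called higher. With any other single library left out, neither passed. FPKM per count differed by up to 12.6% between libraries for Ciita, against at most 4.93% for the other tested members.

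H2-Oa (ENSMUSG00000024334, chromosome 17, 34092340 to 34095234, plus strand), the alpha chain of the inhibitor of H2-DM, was too low for the test. It had 20, 4 and 10 counts in TAC and 5, 8 and 8 counts in sham. TAC held both the highest and the lowest library, and an exact two-sided permutation test on log2(CPM + 0.5) gave p = 0.6, where 3 against 3 cannot go below 0.1. H2-Ob, its partner chain, had 1.99, 2.60 and 3.02 CPM in TAC and 1.90, 1.40 and 2.17 CPM in sham (log2 fold change 0.48 ± 0.29 SE, adjusted p = 0.331 in edgeR). H2-Eb2, a low beta chain gene, had 5, 20 and 11 counts in TAC and 9, 2 and 4 in sham. H2-Ea-ps, annotated as a polymorphic pseudogene and the alpha chain partner of H2-Eb1 in strains that make I-E, was at 0 counts in all 6 libraries. A count of 0 allows up to 3 counts in a library, for counting error only.

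**Figure D2:**
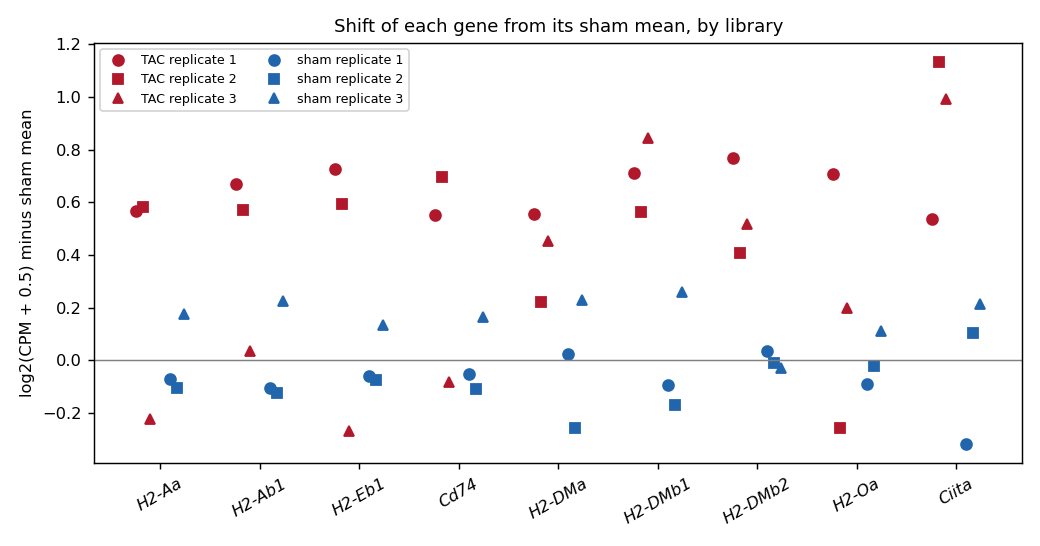
Difference of log2(CPM + 0.5) of each gene and library from that gene's sham mean, TAC libraries in red left of sham libraries in blue. TAC replicate 3 (red triangles) lies at or below the sham level for H2-Aa, H2-Ab1, H2-Eb1 and Cd74 and above all sham libraries for H2-DMa, H2-DMb1, H2-DMb2 and Ciita.

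TAC replicates 1 and 2 stood above every sham library in 7 of the 8 tested members, against 22.5% of all tested genes. This split was chosen after the values were seen. TAC replicate 3 differed in the balance between members. The H2-DM genes summed to 7.27%, 6.11% and 12.3% of the FPKM of H2-Aa, H2-Ab1 and H2-Eb1 in TAC replicates 1, 2 and 3, and to 7.15%, 6.50% and 7.29% in sham. Ciita amounted to 0.323%, 0.499% and 0.749% of the same sum in TAC and to 0.262%, 0.362% and 0.364% in sham. The ratios between the chains were also lowest in TAC replicate 3. H2-Eb1 over H2-Ab1 was 1.02, 1.01 and 0.768 in TAC and 0.999, 0.986 and 0.906 in sham. H2-Aa over H2-Ab1 was 2.11, 2.28 and 1.89 in TAC and 2.31, 2.30 and 2.18 in sham. Cd74 relative to the 3 chains stayed between 0.739 and 0.846 in TAC and between 0.771 and 0.792 in sham. No test was run on these ratios.

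**Figure D3:**
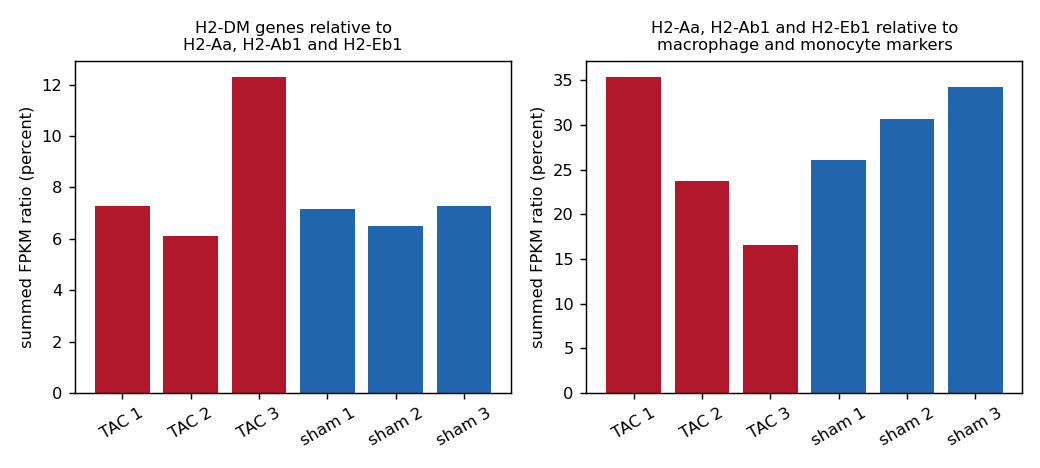
Ratios of summed FPKM in percent by library, TAC in red left of sham in blue: H2-DM genes over H2-Aa, H2-Ab1 and H2-Eb1 (left panel), and these chains over 18 macrophage and monocyte markers (right panel). TAC replicate 3 has the highest value on the left, 12.3%, and the lowest on the right, 16.6%.

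The proteins that act on class II molecules or on their promoters were taken from lists, which the members are not part of. Of all tested genes, edgeR called 1.12% higher and 0.54% lower, and 25.6% had an unadjusted p under 0.05. DESeq2 called 7.81% higher, and limma-voom 96 of 13708. These shares stand beside the counts of every list below. Of 7 promoter factors, edgeR called 1 higher and 0 lower, and 6 did not pass (median log2 fold change 0.10). At an unadjusted p under 0.05 there were 3, and DESeq2 called 1 higher and 1 lower. Creb1, a factor of the X box region, rose with 19.99, 29.3 and 22.7 CPM in TAC against 12.6, 11.5 and 11.1 CPM in sham (log2 fold change 1.03 ± 0.17 SE, adjusted p = 0.0327 in edgeR). Its FPKM per count differed by up to 52.1% between libraries, and on log2(FPKM + 1) it did not pass (limma-trend adjusted p = 0.122). Rfx5, a subunit of the X box complex RFX, had 8.14, 6.77 and 5.83 CPM in TAC against 11.2, 9.34 and 10.3 CPM in sham, without overlap. It did not pass, at -0.57 ± 0.18 (SE, adjusted p = 0.0994 in edgeR). The FPKM per count of Rfx5 differed by up to 53.4% between libraries.

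Of 11 endolysosomal processing genes, edgeR called 1 higher and 0 lower, and 10 did not pass (median 0.24). At an unadjusted p under 0.05 there were 5, DESeq2 called 4 higher, and limma-voom and limma-trend called 0. Ctss, cathepsin S, the protease that trims the invariant chain, rose with 46.5, 100.5 and 84.5 CPM in TAC against 32.1, 22.3 and 27.7 CPM in sham (log2 fold change 1.498 ± 0.28 SE, adjusted p = 0.0436 in edgeR). It did not pass in limma-voom (adjusted p = 0.0585) or in limma-trend on log2(FPKM + 1) (adjusted p = 0.0796). It was high in TAC replicate 3, unlike Cd74. Of 5 genes of class II turnover and display, edgeR and DESeq2 each called 1 higher and 0 lower, and 4 did not pass (median -0.09). March1, a ubiquitin ligase that takes class II from the surface, rose with 5.21, 7.90 and 5.49 CPM in TAC against 1.95, 2.54 and 2.45 CPM in sham (log2 fold change 1.42 ± 0.24 SE, adjusted p = 0.0363 in edgeR). It did not pass in limma-voom (adjusted p = 0.0509) and passed narrowly in limma-trend on log2(FPKM + 1) (adjusted p = 0.0496). The calls of Creb1, Ctss and March1 were each lost when any library other than TAC replicate 1 was left out (adjusted p = 0.0506 to 0.227 in edgeR). Those fits called between 4 and 82 genes higher over the whole table, against 153 with all libraries, so such a loss was common. None of 5 costimulation and checkpoint ligands passed (edgeR, 1 at an unadjusted p under 0.05, 0 by DESeq2), the most abundant being Icosl at 0.14 (SE 0.13) and Cd274 at 0.20 (SE 0.32).

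The interferon gamma pathway showed no call among 8 tested genes (edgeR, median -0.04, 1 at an unadjusted p under 0.05, 1 by DESeq2). Ifng itself had 3, 1 and 5 counts in TAC and 0 in each sham library. Its receptor genes Ifngr1 and Ifngr2 stood at -0.03 ± 0.10 and -0.49 ± 0.22 on the log2 scale (SE). Without TAC replicate 1, Ifngr2 passed at -0.80 (adjusted p = 0.0132 in edgeR).

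MHC class I genes, for the presentation of cytosolic peptides, had 0 calls among 13 tested genes (edgeR, 7 at an unadjusted p under 0.05, 5 higher by DESeq2). Of these, 12 had positive log2 fold changes, with a median of 0.64. B2m, the light chain, had 521, 479 and 336 CPM in TAC against 285, 229 and 283 CPM in sham (log2 fold change 0.75 ± 0.19 SE, adjusted p = 0.0745 in edgeR). H2-D1, a heavy chain, had 552, 503 and 404 CPM in TAC against 292, 284 and 356 CPM in sham (0.65 ± 0.17 SE, adjusted p = 0.0753 in edgeR), and its counts were fractional. In both, TAC replicate 3 was the lowest TAC library but lay above all sham libraries, unlike H2-Aa and H2-Eb1. The class I list did not share this as a whole. In 5 of the 13 the groups did not overlap in CPM, with TAC above sham, against 18.4% of all tested genes. H2-T23 had 72.6, 72.7 and 40.5 CPM in TAC against 35.9, 41.7 and 48.7 CPM in sham, with TAC replicate 3 inside the sham range. Without TAC replicate 3, B2m passed at 0.90 (adjusted p = 0.0330 in edgeR). Among 5 genes of the cytokine MIF and the receptor partners of CD74, 0 passed (edgeR, 4 at an unadjusted p under 0.05, 3 higher by DESeq2). Mif was at 0.61 ± 0.14 (SE, adjusted p = 0.0627 in edgeR) and its relative Ddt at -0.62 ± 0.24 (SE, adjusted p = 0.155 in edgeR). Both passed without TAC replicate 1, Mif at 0.70 (adjusted p = 0.00839 in edgeR) and Ddt at -0.94 (adjusted p = 0.0157).

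Markers of cells that carry class II were compared beside these values, and their part in the class II values was not tested. Of 18 macrophage and monocyte markers, edgeR called 3 higher and 0 lower, and 15 did not pass (median 0.85). At an unadjusted p under 0.05 there were 13, against 25.6% of all tested genes. DESeq2 called 12 higher, against 7.81% of all tested genes, and limma-voom called 1. Without TAC replicate 1, edgeR called 13, in a fit in which 13.2% of all genes were called higher. Ccr2, the receptor of recruited monocytes, had 10.02, 23.8 and 33.7 CPM in TAC against 4.26, 1.91 and 3.19 CPM in sham (log2 fold change 2.86 ± 0.46 SE, adjusted p = 0.0327 in edgeR). The other called ones were Cd68, a lysosomal protein, at 1.56 ± 0.26, and Plac8 at 1.85 ± 0.33 (SE). All 3 calls were lost when any library other than TAC replicate 1 was left out, in fits that called between 4 and 82 genes higher over the whole table. Summed FPKM of the list were 681, 1019 and 925 in TAC and 585, 486 and 553 in sham. The 3 classical chains amounted to 35.4%, 23.8% and 16.6% of that sum in TAC and to 26.1%, 30.7% and 34.2% in sham. By this measure TAC replicate 1 was highest and TAC replicate 3 lowest of all 6 libraries. Lyz2, C1qa, C1qb and C1qc made up most of the marker sum. Over Csf1r, another marker of the list, the chains stood at 9.42, 5.58 and 4.48 in TAC and at 4.86, 5.24 and 5.14 in sham. TAC replicate 2 lay above all sham libraries there, but below them relative to the sum. FPKM per count of Csf1r differed by up to 25.9% between libraries.

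Of 11 tested B cell markers, 0 passed (edgeR, 7 at an unadjusted p under 0.05, 3 higher by DESeq2), all 11 had positive log2 fold changes and the median was 1.05. Their summed FPKM were 59.2, 413 and 128 in TAC and 34.8, 49.8 and 39.6 in sham, mostly of Ighm, the IgM heavy chain (log2 fold change 2.39 ± 0.65 SE, adjusted p = 0.0811 in edgeR). Cd79a, a part of the B cell receptor, had 3.42, 17.7 and 3.02 CPM in TAC against 1.44, 2.06 and 2.40 CPM in sham. Without TAC replicate 2 the log2 fold change was 1.17 for Ighm and 0.68 for Cd79a, against 2.39 and 2.02 with it. Without TAC replicate 1 both passed, Ighm at 2.83 (adjusted p = 0.0117 in edgeR) and Cd79a at 2.39 (adjusted p = 0.0439). Without Ighm the sums were 11.1, 27.6 and 11.5 in TAC and 6.13, 7.65 and 8.69 in sham, with TAC replicate 2 the highest. Of 11 tested dendritic cell markers, 0 passed (edgeR, 5 at an unadjusted p under 0.05, 1 higher by DESeq2), with a median of 0.62. Their summed FPKM were 34.9, 39.4 and 27.1 in TAC and 25.02, 19.9 and 23.2 in sham, with TAC replicate 3 the lowest TAC sum. Clec10a and Mgl2 carried much of these sums, with 6.85, 15.9 and 3.94 FPKM and 16.35, 6.20 and 7.38 FPKM in TAC. The list did not follow 1 order: in CPM, some markers were highest and others lowest in TAC replicate 3 among the TAC libraries. Clec10a, a lectin of dendritic cells and macrophages, had 11.0, 22.7 and 5.61 CPM in TAC against 3.59, 3.68 and 4.29 CPM in sham (log2 fold change 1.76 ± 0.45 SE, adjusted p = 0.0733 in edgeR). It passed without TAC replicate 1 (1.87) and without TAC replicate 3 (2.11), and stood at 1.08 without TAC replicate 2. Mgl2, a related lectin, was at 0.21 ± 0.40 (SE) and at -0.42 without TAC replicate 1.

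Of 7 tested T cell markers, 0 passed (edgeR, 5 at an unadjusted p under 0.05, 0 by DESeq2), and their list summed to 4.50, 8.20 and 8.35 FPKM in TAC and 3.37, 3.36 and 3.46 FPKM in sham. Trac, the T cell receptor alpha constant gene, was at 0.56 ± 0.37 and Cd3g at 1.94 ± 0.65 (log2 fold change, SE). Cd3g stood at 1.27 without TAC replicate 2 and passed at 2.24 without TAC replicate 1 (adjusted p = 0.049995 in edgeR). Neutrophil markers summed to 32.5, 180 and 194.9 FPKM in TAC and 12.4, 3.61 and 6.55 FPKM in sham, with 3 of 7 called higher in edgeR. All 7 had an unadjusted p under 0.05, DESeq2 called 7 higher and limma-voom 0. The edgeR calls were S100a9 at 4.77 ± 0.77, S100a8 at 4.97 ± 0.84 and Mmp8 at 5.49 ± 1.01 (log2 fold change, SE). Without sham replicate 1 they stood at 5.52, 6.20 and 6.18. The 3 calls were lost without any library other than TAC replicate 1, in fits that called between 4 and 82 genes higher. Ly6g was at 0 in all sham libraries. Of 8 endothelial markers, edgeR called 1, Tie1, an endothelial receptor, at a log2 fold change of -0.63 ± 0.11 (SE). The call was lost without any library other than TAC replicate 1, in fits that called between 8 and 52 genes lower. At an unadjusted p under 0.05 there were 3, and DESeq2 called 1 higher and 2 lower. Of 8 cardiomyocyte markers none passed (edgeR, 2 at an unadjusted p under 0.05, 2 lower by DESeq2). No marker of macrophages, B cells, dendritic cells or T cells was at 0 in all libraries of a group.

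**Figure D4:**
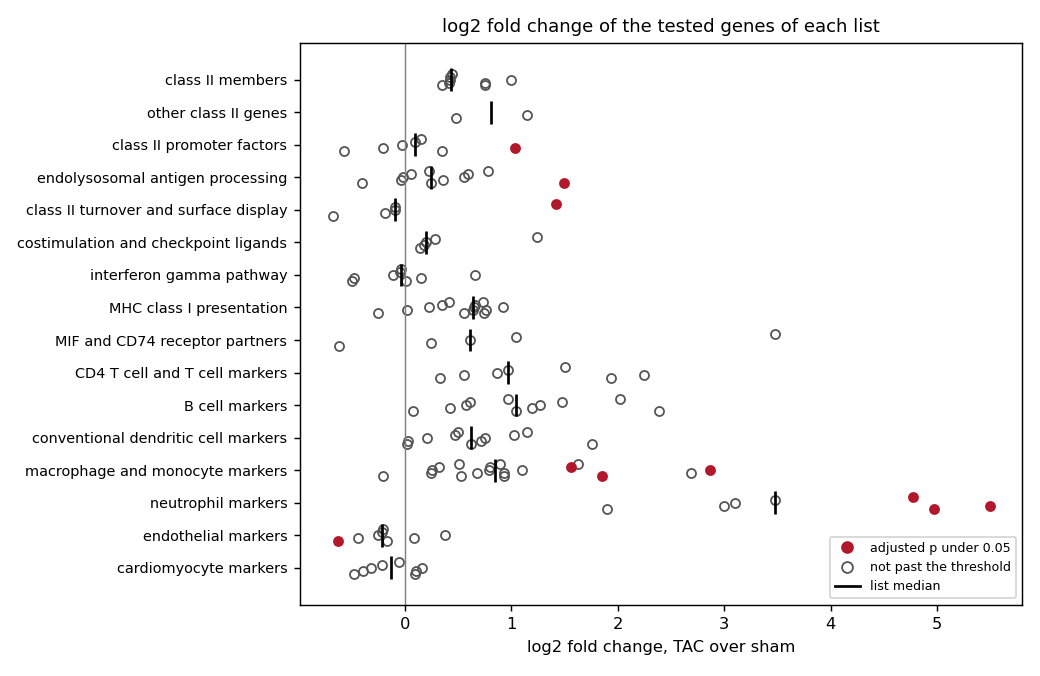
log2 fold changes of TAC over sham for the tested genes of each list, with called genes filled in red and a black line at the list median. The class II members lie between 0.35 and 1.00 with none called, beside medians of 0.64 for class I and 0.85 for macrophage and monocyte markers.

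Of the 9 members, 7 lie on chromosome 17 within the MHC region. Between the start of H2-Oa at 34092340 and the end of H2-Eb2 at 34341412, the table held 14 genes, the 7 members and 7 others. None of the 7 others passed (edgeR, 1 at an unadjusted p under 0.05, 1 higher by DESeq2), 6 had positive log2 fold changes and their median was 0.48. Most of them also serve antigen presentation: Psmb8, an immunoproteasome subunit, was at 0.74 (SE 0.21) and Psmb9, another, at 0.64 (SE 0.32). Tap1 and Tap2, which pump peptides for class I, were at 0.41 (SE 0.23) and 0.02 (SE 0.15). Brd2, a chromatin reader with no role specific to presentation, was at -0.19 (SE 0.12). Of the 101 genes with the X and Y box arrangement, 56 were tested and 0 passed in either direction (edgeR), with a median log2 fold change of 0.06. At an unadjusted p under 0.05 there were 8, and DESeq2 called 1 higher and 2 lower. Of all tested genes, 25.6% had an unadjusted p under 0.05. DESeq2 called 7.81% of all tested genes higher, and 598 of 13708 lower.

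The genes outside all lists whose log2(CPM + 0.5) followed the mean of the 8 tested members most closely over the 6 libraries were Rab3d, Bco2, Pdcd6, Scgb1c1 and Cxcr5, with Pearson correlations between 0.976 and 0.984. Rab3d encodes a small GTPase of secretion, and Cxcr5 a chemokine receptor of B cells and follicular helper T cells. Cxcr5 had 1.71, 1.22 and 0.893 CPM in TAC against 0.411, 0.478 and 0.693 CPM in sham. The correlations are descriptive, since these genes were picked for them out of all tested genes and the 6 libraries hold both groups.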

How the data were processed

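RNA of 6 mouse hearts was sequenced, 3 TAC and 3 sham, grouped by sample titles. Per the file headers, the authors deposited 1 count and 1 FPKM column for each library. The deposited counts are estimated counts, since between 88.7% and 89.7% of a library's nonzero values are exactly whole as deposited, with no tolerance, and the rest are fractional. The build GRCm38 and the tools StringTie 1.3.1, HISAT2, DESeq2 and Bowtie2 2.2.8 are listed in the submitters' processing notes, without their roles. The sources used here do not name the annotation release or a filter. Symbols and coordinates came from GENCODE M21 (GRCm38), and 43 of 22298 identifiers had no symbol. Counts were rounded and tested in R 4.3.3 by the quasi-likelihood method of edgeR 4.0.16 without covariates, after TMM scaling and a filterByExpr minimum count of 10, with Benjamini-Hochberg adjustment over 13708 genes and a threshold of 0.05. The standard error is the size of the log2 fold change divided by the square root of F, an approximation. CPM use TMM-scaled library sizes. The test was checked on simulated data with known changes.

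As alternatives, scaling used upper-quartile or DESeq2 size factors, and the tests were the DESeq2 1.42.0 Wald test, limma-voom, and limma-trend (limma 3.58.1) on log2 of the FPKM plus 1 or plus 0.1. Others had no filter, a minimum count of 100, a replicate block, or 1 library fewer. Summing H2-DMb1 and H2-DMb2 was added after seeing the data. The members and lists were chosen with earlier results of these data known. Named genes were the members, up to 4 called genes per list by adjusted p or, with none called, the 2 of highest mean FPKM, and the 5 genes most like the members' mean. Rfx5, Psmb8, Psmb9, Tap1, Tap2, Brd2, Ifng, H2-Ea-ps and Ly6g were named outside this rule, after their values were seen. So were Csf1r, Lyz2, C1qa, C1qb, C1qc and H2-T23. Ifi30 was listed but not found in the table by symbol. Transcripts were aligned with Biopython 1.88. 1 gene of the interferon gamma list is not reported here.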

Additional observations from a re-analysis of the deposited data

How the results depend on the processing

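None of the 8 tested members changed direction under the alternatives run, and 121 of their 125 alternative values stayed on the same side of the threshold. The other 4 were calls of H2-DMb1 and Ciita: with DESeq2's Wald test the log2 fold changes stood at 0.73 and 0.97, and leaving out TAC replicate 1 gave 0.73 and 1.15. With 1 library left out at a time, the log2 fold change ran from 0.63 to 0.90 for H2-DMb1 and from 0.81 to 1.15 for Ciita. On log2(FPKM + 1) that of Ciita was 0.40, where the added 1 shrinks low values. The cause of the other shifts was not tested. Over all genes, 153 were higher and 74 lower. DESeq2's Wald test called 1071 and 598, limma-voom called 96 higher, and limma-trend called 63 higher on log2(FPKM + 1) and 89 on log2(FPKM + 0.1). With 1 library left out, between 4 and 1837 were higher and between 8 and 1392 lower, the most without TAC replicate 1. The fit with the replicate block called 48 higher and 26 lower. The numbers did not pair the libraries, since deviations from the group mean correlated at -0.03, -0.10 and -0.03 between TAC and sham libraries of numbers 1, 2 and 3. All 10 called genes named from the other lists lost their call without any 1 library other than TAC replicate 1. Among the uncalled genes named by the rule from the other lists, 3 changed direction with 1 library left out. The log2 fold change of Cd274 ran from -0.15 (without TAC replicate 1) to 0.43 and was -0.05 without sham replicate 2. That of Mgl2 ran from -0.42 (without TAC replicate 1) to 0.49, and that of Myl2 from -0.23 to 0.0889 (without TAC replicate 3). H2-DMb2 and Ciita fell under the minimum count of 100 and have no value there. Alternatives were not run for H2-Oa, which low counts limit most, with 4 to 20 counts a library.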
